A study of Rattus norvegicus with 49 samples.

Results

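Cholesterol synthesis and uptake were followed through 7 genes in the liver of rats given furan, a volatile contaminant of heated foods. The genes were Hmgcs1, Idi1, Fdps, Sqle, Lss, Cyp51 and Insig1, all known targets of the transcription factor SREBP2. They were found by the RefSeq accession of the array's probes, and 8 probes matched, 2 for Fdps and 1 for each of the others. They are 7 of the 15154 genes that could be named on the array. All 7 genes passed the filter on low signal, which left 17661 probes. The animals were F344 rats of both sexes, aged 7 to 8 weeks at the first dose, and were gavaged with corn oil on 5 days a week over 90 days. Controls of each sex had the oil with 0 mg/kg of furan, and the 4 treated groups had 0.03 mg/kg, 0.12 mg/kg, 0.5 mg/kg and 2 mg/kg. Each of the 10 groups held 5 rats with 1 array each, except for the males at 0.03 mg/kg, which held 4. Liver RNA was hybridised in 1 colour and a universal rat reference RNA in the other, so each value is the log2 ratio of liver to that mixed reference. A value of 1 means that liver gave 2-fold the reference signal for that probe. Ratios of different genes are not set against each other, because each probe has its own reference level.

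Hepatocytes make cholesterol from acetyl-CoA in a long chain of enzymes and also take it up from the blood as lipoprotein. When sterol in the endoplasmic reticulum is scarce, SCAP escorts SREBP2 to the Golgi, where it is cleaved into an active factor that raises the genes of both routes together. When sterol is plentiful, INSIG proteins hold SCAP back. Hmgcs1 makes HMG-CoA at the head of the mevalonate route, Idi1 and Fdps build isoprenoids from mevalonate, Sqle and Lss make and close the sterol skeleton, and Cyp51 removes a methyl group from lanosterol. Insig1 encodes the retaining protein itself and is also induced by SREBP.

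The share of liver spots that cleared background well ran from 37.9% to 71.1% over 48 arrays. Male 26, dosed at 0.03 mg/kg, gave only 5.06%, and its array is called the dim array. Each of the 8 probes was well above background in liver on at least 48 arrays, and none was saturated on any. Differences were fitted with the 8 slides as a block, except where they are given as unadjusted, within a slide or under another setting. Slides 5 and 6 held 10 treated rats and 0 controls, with liver-channel medians of 43.1% and 45.0%. The tissue label was borne out by its markers. Over the 48 arrays that were not dim, Alb had a median log2 ratio of 8.27 and Ttr of 8.25, both hepatocyte genes. In a whole liver sample, fewer cells of a type and less RNA per cell cannot be told apart.

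The known cooperation of SREBP2 with NF-Y, a factor that binds the letters CCAAT, makes the start regions of these genes useful to see beside their values. RefSeq promoters of the GRCr8 assembly, 300 bases from 250 before to 50 after the start, were available for 6 of the 7 genes, and Sqle was not among them. CCAAT or its reverse, ATTGG, was present in 5 of the 6, all but Cyp51, against 37.5% of all 33469 promoters. The letters GGGCGG or their reverse, CCGCCC, were also present in 5 of the 6, all but Idi1, against 33.1% of all. The letters TCACNCCAC, a form of the sterol element, were present in 0 of the 6 on either strand and in 1.12% of all promoters. CACGTG, which reads the same on both strands, was found in 1 of the 6, Insig1, and in 6.42% of all. The first 250 bases of 4 promoters are shown here, those of enzymes that varied together over the rats and hold CCAAT, 5′ to 3′ on the strand of the gene and with CCAAT or ATTGG in capitals. A match is a description of letters and not a shown binding site.

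Hmgcs1, GRCr8 chr2:53382054-53382303, plus strand: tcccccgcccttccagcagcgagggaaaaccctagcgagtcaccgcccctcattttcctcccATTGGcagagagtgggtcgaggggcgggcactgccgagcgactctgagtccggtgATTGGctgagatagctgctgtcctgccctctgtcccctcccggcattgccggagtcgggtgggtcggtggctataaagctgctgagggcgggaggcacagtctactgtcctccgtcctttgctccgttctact
Idi1, GRCr8 chr17:66547525-66547774, minus strand: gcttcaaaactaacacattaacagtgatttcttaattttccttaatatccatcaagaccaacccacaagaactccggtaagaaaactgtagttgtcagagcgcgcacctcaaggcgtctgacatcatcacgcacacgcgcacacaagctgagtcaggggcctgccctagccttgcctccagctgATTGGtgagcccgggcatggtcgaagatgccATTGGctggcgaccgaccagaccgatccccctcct
Fdps, GRCr8 chr2:176804817-176805066, minus strand: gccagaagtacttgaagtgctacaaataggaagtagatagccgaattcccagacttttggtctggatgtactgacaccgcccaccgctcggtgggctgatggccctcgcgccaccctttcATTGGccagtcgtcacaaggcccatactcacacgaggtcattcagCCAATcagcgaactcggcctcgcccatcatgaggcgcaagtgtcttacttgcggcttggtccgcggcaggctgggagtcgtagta
Lss, GRCr8 chr20:12118231-12118480, minus strand: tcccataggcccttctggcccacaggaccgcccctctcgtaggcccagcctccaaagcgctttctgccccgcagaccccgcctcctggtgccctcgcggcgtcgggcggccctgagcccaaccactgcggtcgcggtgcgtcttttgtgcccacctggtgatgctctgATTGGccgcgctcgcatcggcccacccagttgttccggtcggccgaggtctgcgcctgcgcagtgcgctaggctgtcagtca

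In Hmgcs1 the capitals began 188 and 133 bases before the start, in Idi1 66 and 35, in Fdps 130 and 85, and in Lss 82. Insig1 had 1 match, 193 bases before its start.

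The clearest difference in these genes was between the sexes. In control rats, 5 of the 7 genes were called as higher in females by limma, namely Idi1, Fdps, Sqle, Lss and Cyp51, and none was called as higher in males. A gene was called at a Benjamini-Hochberg adjusted p of at most 0.05 over all probes and a fold change of at least 1.5. Of all probes, 3.01% were called as higher in female controls by the same rule, and 7.39% by adjusted p alone, which 5 of the 7 also passed. The median male minus female log2 difference of the 7 genes was -0.62, against 0.02 over all probes.

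Fdps makes farnesyl diphosphate, from which both sterols and isoprenoid anchors are built. Its log2 ratios in the 5 control females were 1.76, 1.95, 2.03, 2.08 and 2.52, with a mean of 2.07 ± 0.28 (SD). In the 5 control males they were 0.76, 0.78, 1.08, 1.14 and 1.14, with a mean of 0.98 ± 0.19 (SD). Every female lay above every male, and with the slide block the level was 2.00-fold higher in females (log2 difference -1.0, SE 0.23, limma adjusted p = 0.0022). The second Fdps probe gave a log2 difference of -1.17 (SE 0.23, limma adjusted p = 0.000327). Cyp51 and Lss also did not overlap between the sexes in controls. The share of all probes with every control female above every control male was 3.65%.

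Sqle, squalene epoxidase, adds the oxygen that squalene needs before its rings can close. In control females its log2 ratios were -0.79, -0.73, -0.71, -0.38 and 0.49, and in control males -2.01, -1.66, -1.61, -1.23 and -0.66. The groups touched only through male 2, the highest male, who lay above 3 of the females. The slide-adjusted level was 2.07-fold higher in females (log2 difference -1.05, SE 0.27, limma adjusted p = 0.00539). Idi1, the isomerase that makes the reactive isoprene unit, was 2.01-fold higher in control females (log2 difference -1.01, SE 0.22, limma adjusted p = 0.00123). Its ratios were 0.72, 0.85, 1.21, 1.29 and 2.31 in females and -0.45, 0.16, 0.24, 0.64 and 1.30 in males. Here too male 2 was the highest male and lay above 4 of the 5 females, so the raw groups overlapped. Female 11, the highest female for Idi1 and Sqle, was hybridised on slide 2, as was male 2. Without the slide block Idi1 lost its call in controls (log2 difference -0.90, limma adjusted p = 0.196).

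Lss, the cyclase that makes lanosterol, was 1.51-fold higher in control females (log2 difference -0.59, SE 0.16, limma adjusted p = 0.00805). Its ratios were 0.83, 0.98, 1.0, 1.18 and 1.44 in females and 0.16, 0.41, 0.52, 0.58 and 0.67 in males. Cyp51 was 1.54-fold higher (log2 difference -0.62, SE 0.15, limma adjusted p = 0.00312). It ran from 0.85 to 1.32 in control females, with a median of 1.03, and from 0.19 to 0.65 in control males, with a median of 0.46. Both sit near the 1.5-fold limit. Without female 11 the fold of both dropped under it, at log2 differences of -0.46 for Lss and -0.53 for Cyp51, and without male 3 at -0.57 and -0.55, so that 3 of the 7 genes were called in either case. Lss was called in 5 of the 10 fits that each left out 1 control rat, Cyp51 in 8, and Idi1, Fdps and Sqle in 10. With the liver channel alone, only Idi1 was called in controls (-0.94). Fdps then gave -0.66 (limma adjusted p = 0.778) and Sqle -0.92 (limma adjusted p = 0.0546).

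Hmgcs1 and Insig1 were not called. The ratios of Hmgcs1 were 1.17, 1.97, 1.98, 2.24 and 3.49 in control females and 1.35, 1.90, 1.94, 2.26 and 2.74 in control males. Those of Insig1 were 2.24, 2.62, 2.71, 3.37 and 4.34 in females and 1.10, 3.12, 3.28, 3.40 and 3.82 in males. The sexes overlapped over most of their range in both genes. For Hmgcs1 the log2 difference was -0.13 with a 95% interval from -0.77 to 0.51, and for Insig1 0.17 with an interval from -0.70 to 1.04. These intervals include a 1.5-fold difference in either direction for Insig1 and a higher level in females for Hmgcs1, so the arrays do not show that the 2 genes were alike in the sexes.

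The same 5 genes stood higher in females when all doses were averaged. The log2 differences, males minus females, were -1.0 (SE 0.10) for Fdps, -0.79 (SE 0.12) for Sqle, -0.63 (SE 0.10) for Idi1, -0.57 (SE 0.07) for Cyp51 and -0.48 (SE 0.07) for Lss. The first 3 were called, with limma adjusted p values of 9e-10, 2.01e-06 and 3.9e-06, and 5 of the 7 passed by adjusted p alone. The folds of Cyp51 and Lss were 1.48 and 1.39. Over all probes, 2.98% were called as higher in females and 19.8% passed by adjusted p alone. Females were higher for each of the 5 genes on 8 of 8 slides, with mean log2 differences within a slide from -1.68 to -0.62 for Fdps and from -1.26 to -0.25 for Sqle. For Hmgcs1 and Insig1 they were higher on 5 of 8 slides. Removing the dim array left the averaged calls as they were. Under median centring in place of loess, 5 of the 7 were called. Idi1 lay close to the 1.5-fold limit and lost its averaged call with no slide in the model (-0.55, also without the dim array), with the series matrix (-0.56), with the liver channel alone (-0.57) and without male 44 at 0.12 mg/kg (-0.58).

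Dose by dose, the unadjusted group means of these 5 genes were lower in males at every dose. For Fdps the male minus female difference of means was -1.26 at 0.03 mg/kg, -0.97 at 0.12, -0.92 at 0.5 and -0.65 at 2 mg/kg. For Sqle it was -0.70, -0.70, -0.83 and -0.55 at the same doses, and for Cyp51 -0.61, -0.40, -0.44 and -0.62. The male means at 0.03 mg/kg include the dim array, whose Fdps ratio was -0.11 against a group mean of 0.72. Without that array the male mean was higher for Fdps, so that its gap at 0.03 mg/kg was smaller than -1.26. The male mean of Cyp51 then rose from 0.39 to 0.51, a smaller gap, and that of Sqle fell from -1.13 to -1.25, a larger one. The sexes did not overlap for Sqle and Lss at 0.12 mg/kg or for Cyp51 at 2 mg/kg, and they did for these genes at the other furan doses. For Idi1 they overlapped at all 4 furan doses. For Fdps they overlapped at all 4 by the brighter probe, but by the second probe only at 0.03 and 2 mg/kg. The share of all probes without overlap was taken in controls only, so these are descriptions without a background. Hmgcs1 and Insig1 had differences of both signs, with means higher in males at 0.12 mg/kg by 0.30 and 0.19. Insig1 was also higher in males at 0.5 mg/kg, by 0.29. At 0.03 mg/kg Insig1 gave -0.85, from a male mean of 2.48 with the dim array. Without that array the male mean was 3.30, against 3.33 in females.

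**Figure D1:**
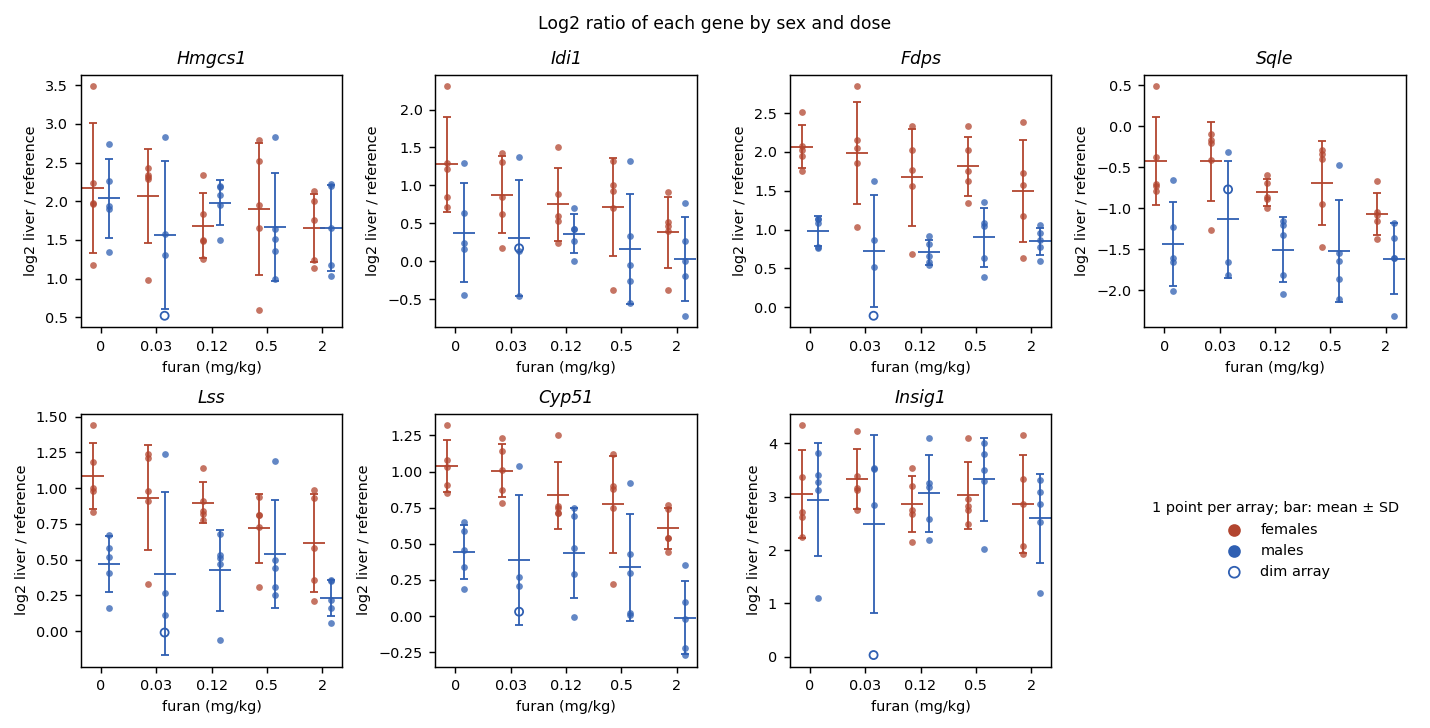
Log2 ratio of liver to reference RNA on the y axis, on its own scale for each of the 7 genes, against furan dose in mg/kg on a categorical x axis. Each point is 1 array, bars give the mean and SD, and the open circle is the dim array. Females lie above males at every dose for Idi1, Fdps, Sqle, Lss and Cyp51 by their means, while Hmgcs1 and Insig1 overlap widely.

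Markers of other cell types also differed between the sexes. Of 6 macrophage markers, 5 passed by adjusted p as lower in males over all doses, with a median log2 difference of -0.53. Of 7 hepatocyte markers, 2 were lower and 1 higher in males by adjusted p, with a median of -0.06. Of 3 endothelial markers, 2 were called as lower in males, with a median of -0.60. Of 6 stellate markers, 4 passed as higher in males, with a median of 0.31. Of 5 bile duct markers, 2 passed as higher and 1 as lower in males, with a median of 0.04. Of 2 neutrophil markers 2 passed as lower, of 3 erythroid markers 1 passed as lower, and of 3 lymphocyte markers 0 passed in limma. The male averages over all doses include the dim array, and the markers were not read again without it. In controls alone, which hold no dim array, 1 of the 6 macrophage markers passed as lower in males, with a median of -0.42. Of the 3 endothelial markers 1 passed as lower, with a median of -0.31, and of the 6 stellate markers 0 passed. The part of any of these markers in the result was not tested.

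By the calling rule, 0 of the 7 genes responded to furan at any dose. In males, 0 of the 7 were called at 0.03, 0.12, 0.5 and 2 mg/kg, against 0%, 0.17%, 0.142% and 3.81% of all probes in limma. In females, 0 of the 7 were called at the same doses, against 0%, 0.00566%, 0.017% and 0.657%. Tests over all doses were called by adjusted p alone, with no fold limit. A test for any dose called 0 in males and 0 in females (12.1% and 0.804% of all probes), and a trend over the dose ranks called 0 and 0 (11.8% and 6.26%). At an unadjusted p under 0.05 in limma, Cyp51 passed in males at 2 mg/kg, Idi1 in females at 2 mg/kg and Sqle, as higher, in males at 0.03 mg/kg. That is 1 of the 7 genes each time, while 4837, 3100 and 4316 of the 17661 probes passed in these comparisons, which is a larger share than that of the 7 genes. The males at 0.03 mg/kg include the dim array. Without it their mean for Sqle went from -1.13 to -1.25, against -1.43 in control males. The same unadjusted limit was passed by the trend of Idi1 in females and of Cyp51 in both sexes, and by the test for any dose for Idi1 in females and Cyp51 in males. With 5 rats a group, intervals were wide. At 2 mg/kg the interval for Insig1 in males ran from 0.425-fold to 1.47-fold of the control level, and for Hmgcs1 in females from 0.522-fold to 1.34-fold.

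At 2 mg/kg, 6 of the 7 differences lay below 0 in each sex. The median log2 difference of the 7 genes was -0.21 in males and -0.26 in females, while the medians over all probes were -0.02 and 0.01. The exceptions were Fdps in males (0.04, SE 0.24) and Insig1 in females (0.32, SE 0.45). The members share the same arrays, so that 6 of 7 is not a count of independent results. At the lower doses the medians lay between -0.15 and 0.13. When the 2 mg/kg effects of the sexes were averaged, 0 of the 7 were called, as were 1.47% of all probes. By adjusted p alone Cyp51 passed, lower at 2 mg/kg (log2 difference -0.34, SE 0.11, limma adjusted p = 0.0422), as did 5.1% of all probes. Cyp51 was also the only one of the 7 whose 2 mg/kg females all lay below the control females, which 2.74% of all probes did. In males 0 of the 7 did so, against 1.6%. In females at 2 mg/kg its ratios were 0.44, 0.54, 0.54, 0.74 and 0.77, and in males -0.27, -0.22, -0.02, 0.10 and 0.35. The fitted log2 difference was -0.31 in females (SE 0.16, limma adjusted p = 0.307) and -0.37 in males (SE 0.15, limma adjusted p = 0.108). Male means of Cyp51 were 0.44 ± 0.19 (SD) in controls, 0.44 ± 0.31 at 0.12 mg/kg, 0.33 ± 0.37 at 0.5 and -0.01 ± 0.25 at 2 mg/kg, with 0.51 ± 0.46 at 0.03 mg/kg without the dim array. On the 3 slides that held both a control and a 2 mg/kg male, Cyp51 was lower in the treated male by 0.56, 0.60 and 0.46, and on the 2 such slides in females by 0.55 and 0.42, with 1 rat on each side.

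Idi1 had the largest furan difference among the 7 genes. In females at 2 mg/kg its ratios were -0.38, 0.40, 0.47, 0.51 and 0.91, of which 4 lay below every control female. The level was 1.68-fold lower (log2 difference -0.75, SE 0.23, 95% interval -1.22 to -0.28, limma adjusted p = 0.0781). It was called when the dim array was left out, a male array that bears on this comparison only through the shared spread and slide terms (-0.76, limma adjusted p = 0.044), and with array weights (-0.78, limma adjusted p = 0.0103). It was not called when any 1 of the 10 rats compared was left out, where the difference ran from -0.84 to -0.59. Its female means were 1.28 ± 0.63 (SD) in controls, 0.88 ± 0.51 at 0.03 mg/kg, 0.75 ± 0.48 at 0.12, 0.71 ± 0.65 at 0.5 and 0.38 ± 0.47 at 2 mg/kg. In females the trend fell by 0.16 on the log2 scale per dose step (SE 0.05, limma adjusted p = 0.0541). In males at 2 mg/kg the Idi1 difference was -0.21 (SE 0.23). The difference between the sexes in the 2 mg/kg effect was tested as an interaction and called 0 of the 7 genes (0.108% of all probes), with an Idi1 interaction of 0.54 (SE 0.31, limma adjusted p = 0.42). On the slides with a control and a 2 mg/kg female, Idi1 was lower in the treated rat by 1.41 and 1.10.

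Sqle in females at 2 mg/kg gave -1.38, -1.16, -1.08, -1.04 and -0.67, and only the last overlapped the controls. Its log2 difference was -0.54 (SE 0.28, limma adjusted p = 0.321). In males it was -0.10 (SE 0.27, limma adjusted p = 0.85). Lss gave -0.25 (SE 0.17) in females and -0.16 (SE 0.16) in males. Hmgcs1 gave -0.26 (SE 0.34) and -0.29 (SE 0.33). Insig1 ranged widely within groups. In males at 2 mg/kg it gave 1.20, 2.53, 2.86, 3.08 and 3.32 and in females 1.92, 2.08, 2.86, 3.34 and 4.15, so both overlapped their controls. In males at 0.03 mg/kg its mean was 2.48 ± 1.67 (SD) with the dim array, which gave 0.03, and 3.30 ± 0.40 (SD) without it. Markers of other cell types moved with the 2 mg/kg dose in males: 2 of 5 bile duct markers were called as higher, with a median log2 difference of 0.70, and 3 of 7 hepatocyte markers passed by adjusted p as lower, with a median of -0.42. Of 3 erythroid markers 1 was called as lower, with a median of -0.71. Of 6 macrophage, 6 stellate, 3 endothelial, 3 lymphocyte and 2 neutrophil markers, 0 passed by adjusted p. Among the clock genes Npas2 (-0.72) and Per2 (-0.76) were called as lower and Dbp (0.94) as higher in males. Their part in these values was not tested.

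**Figure D2:**
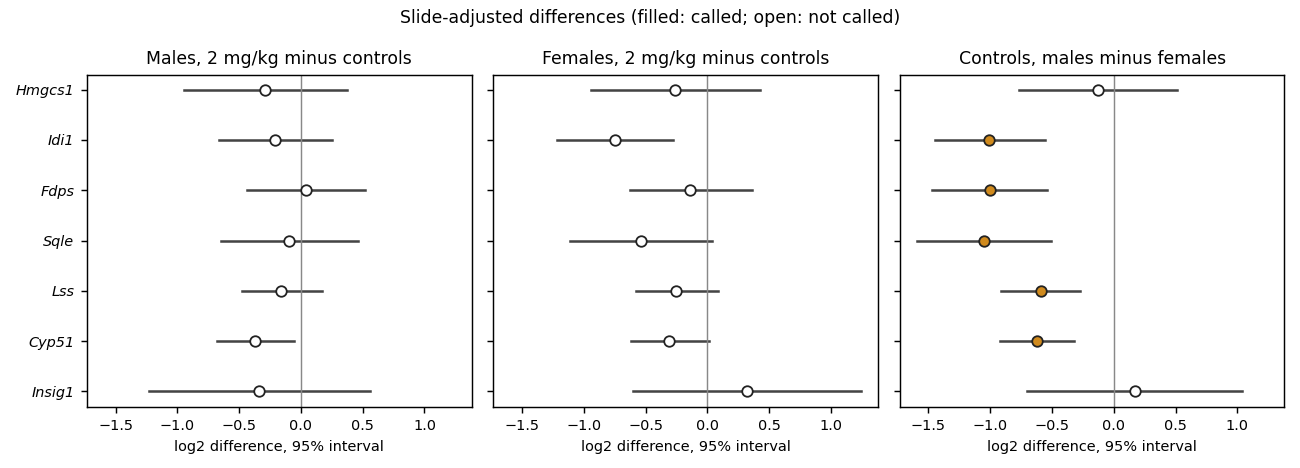
Log2 differences on the x axis, adjusted for slide, with 95% intervals, for the 7 genes in rows. The left and middle panels give 2 mg/kg minus controls in males and females, and the right panel gives control males minus control females. Filled points were called and open points were not: 0 of 7 on the left, 0 of 7 in the middle and 5 of 7 on the right.

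The rest of the synthesis pathway was read from a list of 16 further genes, of which 15 were tested and Lbr had no named probe. Averaged over the doses, 14 of the 15 passed by adjusted p as lower in males and 7 were called. The median log2 difference of the 15 genes was -0.58, and -0.66 in controls. The male averages over all doses include the dim array, and neither this list nor those below were read again without it. Tm7sf2, a sterol reductase, was the extreme, with a log2 difference of -1.71 (SE 0.13, 3.27-fold higher in females, limma adjusted p = 3.25e-13). The others called were Msmo1 (-0.82), Sc5d (-0.80), Dhcr7 (-0.71), Ebp (-0.64), Hsd17b7 (-0.61) and Pmvk (-0.59). All of these but Pmvk, which phosphorylates phosphomevalonate, modify the sterol ring or its side groups. In controls alone 6 of the 15 were called, namely Tm7sf2 (-1.98), Dhcr7 (-0.84), Acat2 (-0.82), Mvd (-0.70), Hsd17b7 (-0.70) and Ebp (-0.67). At 2 mg/kg of furan 0 of the 15 were called in either sex. Ebp passed by adjusted p in males (-0.41, SE 0.14, limma adjusted p = 0.0486).

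**Figure D3:**
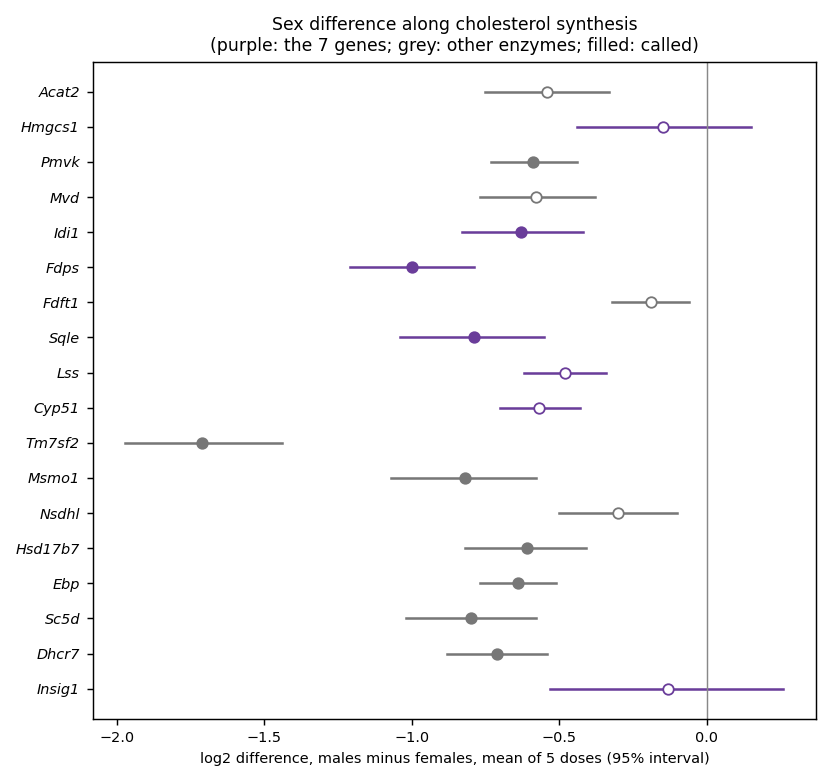
Male minus female log2 difference, averaged over the 5 doses and adjusted for slide, on the x axis with its 95% interval, for the 7 genes in purple and 11 of the other enzymes, those named in the text, in grey, from the head of the pathway at the top with Insig1 last. Filled points were called. All of the genes drawn lie below 0, and Tm7sf2 lies farthest at -1.71. Of the 15 other enzymes tested, 14 lay below 0, so not all of those left undrawn did.

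Among the regulators, Srebf2, which encodes SREBP2, was lower in males by adjusted p over all doses (-0.17, SE 0.05, limma adjusted p = 0.0114) and was not called. Scap, its escort, was also lower (-0.32, SE 0.06, limma adjusted p = 6.32e-05). Insig2, the second INSIG gene, leaned the other way, at 0.37 over all doses (SE 0.17, limma adjusted p = 0.0746) and 0.91 in controls (SE 0.38, limma adjusted p = 0.106). In males at 2 mg/kg Insig2 gave -0.73 (SE 0.39, limma adjusted p = 0.22). Of 11 sterol sensing genes, 7 were tested, 0 were called between the sexes or at 2 mg/kg, and Srebf1 had no named probe. By adjusted p alone, 4 of the 7 passed as lower in males over all doses.

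On the uptake side, 0 of 10 tested genes were called in females at 2 mg/kg. In males 2 of the 10 were called as lower and 3 passed by adjusted p. Among those called, Stard4, a carrier of cholesterol between membranes, fell by 0.69 on the log2 scale (SE 0.13, limma adjusted p = 0.000476), and the value in females was -0.22 (SE 0.13, limma adjusted p = 0.39). Its interaction with sex was -0.47 (SE 0.18, limma adjusted p = 0.214). Between the sexes, Lipa, the lysosomal lipase that frees cholesterol from its esters, was the one uptake gene called, at -0.98 in controls (SE 0.16, limma adjusted p = 1.57e-05) and -1.08 over all doses (SE 0.07, limma adjusted p = 4.48e-15). By adjusted p alone, 8 of the 10 passed as lower in males over all doses, with a median of -0.30, and 1 of the 10 in controls. Of 9 storage and efflux genes tested, Abcg5, a sterol exporter, rose at 2 mg/kg in males (2.04, SE 0.55, limma adjusted p = 0.0105), with 1.34 in females (SE 0.57, limma adjusted p = 0.203). Between the sexes, Nceh1, a hydrolase of cholesterol esters, was higher in control males (0.66, SE 0.20, limma adjusted p = 0.0205), and Cyp7a1, the first enzyme of bile acid synthesis, was lower in males over all doses (-1.72, SE 0.26, limma adjusted p = 1.25e-06).

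Fatty acid synthesis, which SREBP1 governs more than SREBP2, was read from 17 tested genes. Over all doses 12 passed by adjusted p as lower in males and 7 were called, namely Elovl6 (-2.50), Scd (-1.87), Fasn (-1.51), Acss2 (-0.93), Aacs (-0.92), Gpam (-0.73) and Acly (-0.70). In controls 9 of the 17 lay below 0 and 6 were called as lower in males, namely Elovl6, Fasn, Acss2, Aacs, Gpam and Acacb. The median log2 difference of the 17 was -0.54 over all doses, where the dim array is included, and -0.29 in controls. At 2 mg/kg in males 3 of the 17 were called, all lower: Fasn (-1.67, SE 0.33, limma adjusted p = 0.00082), Acly (-1.04, SE 0.31, limma adjusted p = 0.0218) and Mid1ip1 (-1.02, SE 0.28, limma adjusted p = 0.0116).

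A further question was whether the 7 genes rose and fell together from rat to rat once dose, sex and slide had been removed. Residuals from the group means and slide terms were compared over 49 arrays for all 21 pairs. All 15 pairs of the 6 enzymes were correlated, with Pearson r from 0.38 to 0.83 and a median of 0.73. Each passed a permutation test of 100000 resamples with adjustment over the 21 pairs, for r and for Spearman's rho, which ran from 0.34 to 0.79. The resamples shuffled residuals freely over all arrays and took no account of the group and slide terms already fitted. The permutation p values are therefore likely too small, and the weaker pairs are less sure than they read. Idi1 and Sqle had the highest r, at 0.83 (rho 0.78), followed by Hmgcs1 and Cyp51 at 0.81 (rho 0.79). The adjusted permutation p of both r values was 1.91e-05, from a raw p of 1e-05, the smallest that the resamples can give. Without the 2 arrays farthest from the median of the first gene, r was 0.79 for both pairs.

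Fdps was the least coupled of the enzymes. It had r of 0.38 with Idi1 (rho 0.34, adjusted permutation p = 0.00991 for r) and 0.46 with Sqle (rho 0.45), but 0.70 with Lss (rho 0.72). Insig1 stood apart from most of the enzymes. It had r of 0.01 with Idi1 and -0.02 with Sqle, and its one strong pair was with Fdps, at 0.54 (rho 0.51, adjusted permutation p = 8.08e-05 for r). Of its 6 pairs, 3 passed the permutation test for r and 2 for rho, with the limit of that test given above. The pair with Hmgcs1 had r of 0.30 (adjusted permutation p = 0.0436) and 0.14 without the dim array (adjusted permutation p = 0.412), and so rested on that array.

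The coupling of the enzymes was present in both sexes and on most slides. The median r of the 15 pairs was 0.74 in the 24 males and 0.76 in the 25 females, and 0.75 over the 48 arrays left without the dim one. Within the 6 slides that held at least 6 usable arrays, the median r of the 15 pairs was 0.37 on slide 1 and between 0.68 and 0.87 on the other 5. For pairs with Insig1 the medians were 0.87 on slide 7 and between -0.30 and 0.04 on the others. The genes share each array's loess curve and hybridisation, and no p is given within slides.

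**Figure D4:**
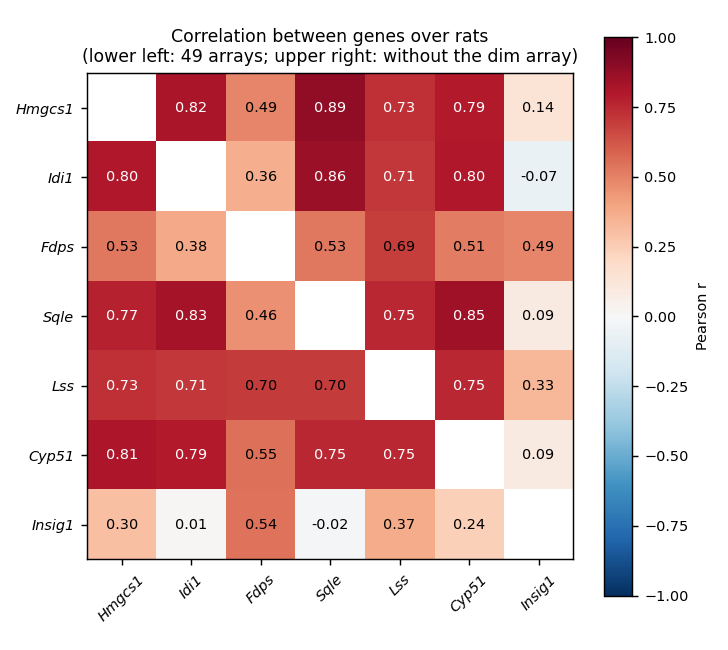
Pearson r between each pair of the 7 genes over rats, as residuals after group means and slide, in colour from -1 in blue to 1 in red with the value printed. The lower left uses 49 arrays and the upper right leaves out the dim array. The block of 6 enzymes is red throughout, while the row of Insig1 runs from -0.02 to 0.54.

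The mean of the 7 scaled residuals was then set against 9830 other named genes over the 48 arrays that were not dim, as a description with no test. The 10 genes with the highest r were Msmo1 (0.89), Acat2 (0.88), Mvd (0.87), Hsd17b7 (0.78), Abcg5 (0.72), Pmvk (0.69), Acss2 (0.68), Car7 (0.66), Fdft1 (0.66) and Nsdhl (0.65). Of these 10, 7 were on the list of other cholesterol synthesis enzymes, Abcg5 was on the storage list and Acss2, which makes acetyl-CoA from acetate, on the fatty acid list. The median r over all 9830 genes was 0.04. Srebf2 ranked 245th at 0.41. The 8 tested clock genes, which vary with the hour of the day, ran from -0.27 for Npas2 to 0.14 for Bmal1. Each member against the mean of the other 6 gave 0.86 for Sqle and Lss, 0.83 for Hmgcs1, 0.81 for Cyp51, 0.74 for Idi1, 0.64 for Fdps and 0.20 for Insig1.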

How the data were processed

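Liver RNA of 49 rats was measured on 2-colour Agilent arrays, with liver in Cy5, a universal rat reference in Cy3 and no dye swap. Per the file headers, slides were read with Agilent Feature Extraction 10.7.3.1. The deposited scanner files hold spot and background signals as median pixel intensity, the software's own background-subtracted and dye-normalised log10 ratio, and 0 or 1 marks of spot quality scored by that software. The deposited series matrix holds the authors' log2 ratio, normalised in R. Of its 49 columns, 46 match an array at r of at least 0.99, but only 7 match best the array of the same animal, so it was used by group only and without slide. Of the 49, 48 match best an array of their own group, and 3 arrays are matched by no column. The group of every column is therefore not certain.

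In R 4.3.3, limma 3.58.1 corrected the intensities by normexp (offset 50) and fitted a loess curve in each array, and spots of a probe were averaged after marked outliers were dropped. Probes well above background in liver on at least 4 arrays of a group were tested (17661). Names came from RefSeq accessions of GRCr8, for 18004 of 30367 probes. The brightest probe stood for a gene. The limma model had 10 group means and 8 slides as a block, with tests 2-sided. The label of a replicate is an animal number, and nothing in the labels pairs animals across groups. Correlations were run in Python 3.11.15 with NumPy 2.4.6.

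The members, gene lists and tests were chosen with earlier results of these data known. Named genes were the members, their fixed regulators, list genes called at 2 mg/kg or between the sexes, and the 10 genes most like the members. Some list genes that this rule names are not reported here, though they remain in the counts and medians. The model was tested on simulated data. The number of arrays limits precision. Alternatives covered slide terms, the dim array, slides 5 and 6 (chosen after seeing the data), normalisation, values, filters, weights, probes and leaving out each array.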

Additional observations from a re-analysis of the deposited data

Results flagged for a closer look

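Within each group of 4 or 5 rats, the highest or lowest value of each gene was compared with the others by Dixon's test. Of 70 gene and group sets, 6 held an array beyond the 95% limit, and chance would flag about 1 in 20 sets. Female 21 at 0.03 mg/kg was low for Hmgcs1, at 0.98 against 2.29 to 2.43 in the other females of that group, and for Sqle, at -1.26 against -0.41 to -0.10. Control male 2 was low for Insig1, at 1.10 against 3.12 to 3.82. Female 42 at 0.12 mg/kg was high for Cyp51, at 1.25 against 0.71 to 0.76. For Lss, male 44 at 0.12 mg/kg was low, at -0.06 against 0.47 to 0.68, and male 70 at 0.5 mg/kg was high, at 1.19 against 0.25 to 0.50. The dim array was not among them.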

How the results depend on the processing

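Of 231 counts of called genes or correlated pairs under other settings, 219 stayed within 1.5-fold of those reported. Most of these were furan counts of 0 that stayed 0, so that share says little about the sex results. The 5 genes called between control males and females became 3 with no slide in the model, 3 with the scanner's log ratio and 3 with the series matrix. With the liver channel alone they became 1, Idi1. Over all doses the 3 called became 5 under median centring. At 2 mg/kg in females, 0 became 1 without the dim array and 1 with array weights, Idi1 both times. The trend in females went from 0 to 1 with slide as a random block, 1 without the dim array and 2 with array weights, and that in males from 0 to 1 without the dim array. The test for any dose in males went from 0 to 1 without it, by Cyp51. The causes were not tested.

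With 1 array left out at a time, the control count ran from 3 to 5, with 3 without female 11 or male 3. The trends ran from 0 to 1 in males (1 without male 70 or 26) and from 0 to 1 in females (1 without female 21 or 68), and any dose in males from 0 to 1. The 2 mg/kg difference of males ran from -0.10 to 0.21 for Fdps and from -0.21 to 0.07 for Sqle. In females it ran from -0.51 to 0.01 for Hmgcs1 and from -0.29 to 0.02 for Fdps. The control sex difference ran from -0.49 to 0.10 for Hmgcs1 and from -0.06 to 0.55 for Insig1, and that of Insig1 over all doses from -0.21 to 0.01.

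Signs turned only for differences that were not called. For Fdps in males at 2 mg/kg the values were -0.13 with no slide, -0.13 with neither slide nor dim array, -0.05 without slides 5 and 6 (chosen after seeing the data), -0.15 with the matrix, -0.02 with the liver channel and -0.01 with array weights. Median centring gave 0.05 for Sqle and 0.01 for Lss in males, and the liver channel gave 0.17 for Fdps in females. Insig1 in females was -0.18 with no slide, -0.18 with neither, and -0.05 with the matrix. Between control sexes it was -0.11, -0.11, -0.14 with the matrix and -0.20 under median centring, and over all doses 0.01 without the dim array and 0.01 with neither.

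Median centring moved the median of all probes between control sexes from 0.02 to -0.17, and the share of calls that were higher in males from 45.3% to 16.3%. At 2 mg/kg the share of higher calls moved from 63.7% to 89% in males and from 56.9% to 20.5% in females. A replicate block on the animal numbers that the control sexes share gave 5 genes, as without it. Their deviations correlated at 0.27 and 0.12 over 2 numbers, which mark no shared source in the labels. Slide as a random block was not run for the correlations. With 5 rats a group, differences that lie inside the intervals given could not be shown.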
